A study of Oryza sativa with 28 samples.

Results

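The 200 genes described here are transcribed loci of the rice panicle that carry an identifier beginning Rice_newGene_ in place of an annotated locus of the MSU7 genome. They were taken from 2504 such new genes in a table of 47919 genes, whose other 45415 rows are annotated loci. A new gene was kept when its FPKM (fragments scaled to the length of the transcript and to the mapped fragments of the library) was at least 1 in all 3 replicates of the group in which its mean was highest, and the 403 new genes that met this were ranked by that highest group mean. The first 200 are the members. Measured levels thus chose the members, and their levels are given as a description.

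RNA-seq was done on young panicles of WXS (Wuxiang S), an indica rice line whose pollen fertility depends on the growing conditions and which carries the mutant tms5 allele in every sample. WXS(S) plants stayed in the summer paddy field and were male sterile, and WXS(F) plants were moved to growth chambers at an average of 22 °C before meiosis and were male fertile. The 4 groups were FP3 and SP3, the fertile and sterile panicles at meiosis (P3), and FP4 and SP4, the fertile and sterile panicles at the uninucleate stage (P4), with 3 biological replicates each. Male fertility and the move from field to chamber cannot be told apart in any comparison of F with S. A panicle is a mixture of glumes, lemma, palea, anthers, pistils and branches, so in these bulk samples fewer cells of a type and less RNA per cell cannot be told apart either.

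Reference annotations of plant genomes miss many transcribed loci, above all long non-coding RNAs, which have no long open reading frame and are often made in 1 tissue or at 1 stage. Such transcripts are recovered when RNA-seq reads are assembled along the genome and compared with the known gene models. Reproductive tissue is a rich source of them. In rice anthers, long non-coding transcripts of many unannotated loci are the precursors that are cut into phased small RNAs, and the Argonaute protein MEL1, made in the germ cells, binds phased small RNAs of this kind around meiosis. The sources used here give no position, sequence, strand or class for the 200 members, and none of them is assigned to any such class.

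The 12 libraries held between 30577833 and 51193158 counts. The members took between 0.838% and 1.77% of the counts of a library. Without Rice_newGene_22322 and Rice_newGene_5832, whose replicates differed widely, they took between 0.642% (FP4 replicate 2) and 1.05% (SP3 replicate 2). All 6 floral organ identity genes looked up (OsMADS1, 3, 4, 7, 8 and 16) reached 1 FPKM in at least 1 library. So did 6 of 6 tapetum and 4 of 4 meiocyte markers, and as a set the libraries carried the markers of a young panicle with anthers. Group means were below 1 FPKM for the meiocyte markers PAIR1 (0.942) and PAIR2 (0.866) in FP4 and for the tapetum marker OsC6 (0.748) in SP3. The summed level of the 3 Rubisco small subunit genes, markers of green tissue, was 6.40 to 7.19 FPKM in FP3, 13.7 to 22.6 in SP3, 35.7 to 38.0 in FP4 and 36.3 to 44.0 in SP4. SP3 replicate 3 stood apart from its group: it was the lowest SP3 library for 137 of the 200 members, and its median log2 difference from the other SP3 replicates over the members was -0.38. The numbers of members highest in SP3 or called in tests that use SP3 are given below with and without it. For the members named in those tests it is said whether they stayed called. Counts shared by comparisons, counts of replicates that do not overlap and the order of group means include it.

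The levels of the members fell steeply with rank. The highest group mean was 1728.5 FPKM, the median over the members 7.59 and the lowest 3.24. Only 8 members had a group mean over 100 FPKM, and 74 had one over 10. At the edge of the rule the differences were minute: Rice_newGene_6884, at rank 200, had a mean of 3.24 FPKM in FP4, and Rice_newGene_15958, at rank 201 and outside, had 3.23 FPKM in FP3. Just inside, Rice_newGene_19686 and Rice_newGene_32131 had 3.28 and 3.25 FPKM, and just outside, Rice_newGene_32855 and Rice_newGene_12247 both had 3.21 FPKM. A further 7 new genes had a group mean as high as a member's and missed the minimum in a replicate. The most extreme was Rice_newGene_38313, with a group mean above that of any member, whose FP3 libraries held 79.3, 20806 and 0 FPKM.

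**Figure D1:**
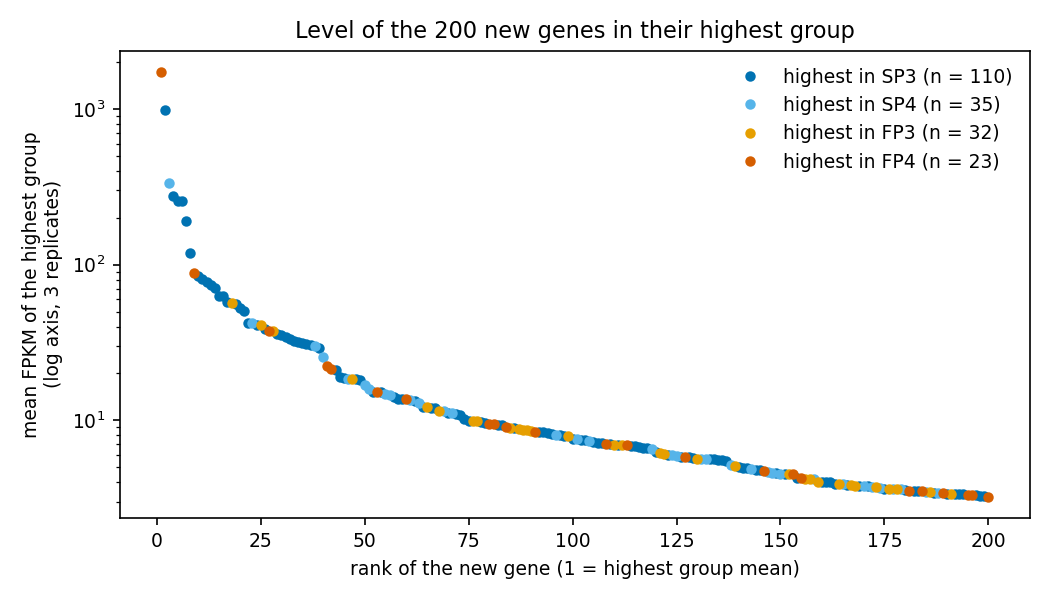
Mean FPKM of each of the 200 new genes in its highest group (log axis, mean of 3 replicates) against its rank, with a point per gene coloured by that group. The values run from 1728.5 to 3.24 FPKM, and 110 of the points belong to SP3.

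The highest ranked member was Rice_newGene_22322, and its mean hid replicates that did not resemble each other. Its FPKM was 114, 1473 and 3598 in the FP4 libraries and 0.067, 0.49 and 744 in the SP3 libraries, while the FP3 libraries held 96.8, 117 and 136 and the SP4 libraries 157, 246 and 176. The spread inside FP4 and inside SP3 was thus wider than any difference between FP3 and SP4. Rice_newGene_17150, at rank 2, was high in every library, with 1186, 1256 and 494 FPKM in SP3, 523, 502 and 474 in FP3, 409, 362 and 380 in SP4 and 355, 337 and 303 in FP4. Replicates 1 and 2 of SP3 lay above all other libraries, and replicate 3 lay among the FP3 values.

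Rice_newGene_30821, at rank 3, was high in every library and highest in the sterile P4 panicle. It measured 302, 331 and 368 FPKM in SP4, 197, 150 and 141 in SP3, 157, 173 and 153 in FP4 and 114, 109 and 116 in FP3, and no SP4 library overlapped any other group. Rice_newGene_36779, at rank 4, measured 374, 350 and 106 FPKM in SP3, 206, 256 and 137 in FP3, 239, 109 and 133 in FP4 and 125, 145 and 98.8 in SP4. All 4 groups overlapped, and its counts per FPKM differed 1.92-fold among libraries, so its FPKM and its counts do not rank the libraries alike. Rice_newGene_19654, at rank 5, was steadier, with 292, 210 and 270 FPKM in SP3, 244, 224 and 203.1 in SP4, 212, 182 and 177 in FP3 and 128, 131 and 154 in FP4. Its FP4 libraries lay below those of every other group.

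Rice_newGene_5832, at rank 6, was carried by 3 libraries. It held 692 FPKM in SP3 replicate 1 and 318 and 410 FPKM in FP4 replicates 1 and 2, and between 29.1 and 46.6 FPKM in the other 9 libraries. Neither SP3 nor FP4 was separated from the other groups, since both kept a replicate near 30 FPKM.

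As a description of likeness, the annotated loci that followed each of these 6 members most closely over the 12 libraries were looked up by Pearson correlation of log2(FPKM + 1) among 19142 loci. The closest was LOC_Os04g24170 with Rice_newGene_17150 (r = 0.998, n = 12), followed by LOC_Os05g24880 (r = 0.993). Rice_newGene_30821 was most alike to LOC_Os01g66700 (r = 0.983) and LOC_Os03g53950 (r = 0.979), and the former averaged 247 FPKM in SP4 and 18.8 in FP3. Rice_newGene_19654 was most alike to LOC_Os03g19190 (r = 0.955) and LOC_Os01g49200 (r = 0.948), and Rice_newGene_36779 to LOC_Os11g07130 (r = 0.945) and LOC_Os02g26614 (r = 0.938). For Rice_newGene_22322 the nearest were LOC_Os03g26210 (r = 0.919) and LOC_Os07g07040 (r = 0.905), and for Rice_newGene_5832 they were LOC_Os04g15820 (r = 0.847) and LOC_Os01g03760 (r = 0.838). The points share their libraries, and these correlations are the highest of many.

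More members had their maximum in the sterile panicle at meiosis than in any other group. The highest group mean was in SP3 for 110 members (55%), in SP4 for 35, in FP3 for 32 and in FP4 for 23 (11.5%). Of the 14698 annotated loci that reached the same level under the same minimum, 39.9% were highest in SP3 and 26.4% in FP4. By CPM (counts scaled to the library total, without length) scaled with TMM factors (edgeR's correction for library composition) in place of FPKM, 104 members were highest in SP3 and 27 in FP4. Without SP3 replicate 3 the number highest in SP3 was 118, and with SP3 replicate 3 alone it was 82.

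Most members were transcribed in all 4 groups. In 141 (70.5%), FPKM was at least 1 in all 12 libraries, against 88.5% of the annotated loci of the same level. A further 19 members met this in 3 groups, 26 in 2 groups and 14 in a single group, which was SP3 for 9 of them, FP3 for 2, FP4 for 2 and SP4 for 1. The coefficient of variation of FPKM over the 12 libraries had a median of 38.7% over the members, with a range of 9.83% to 226.7%, and a median of 29.6% over these annotated loci.

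**Figure D2:**
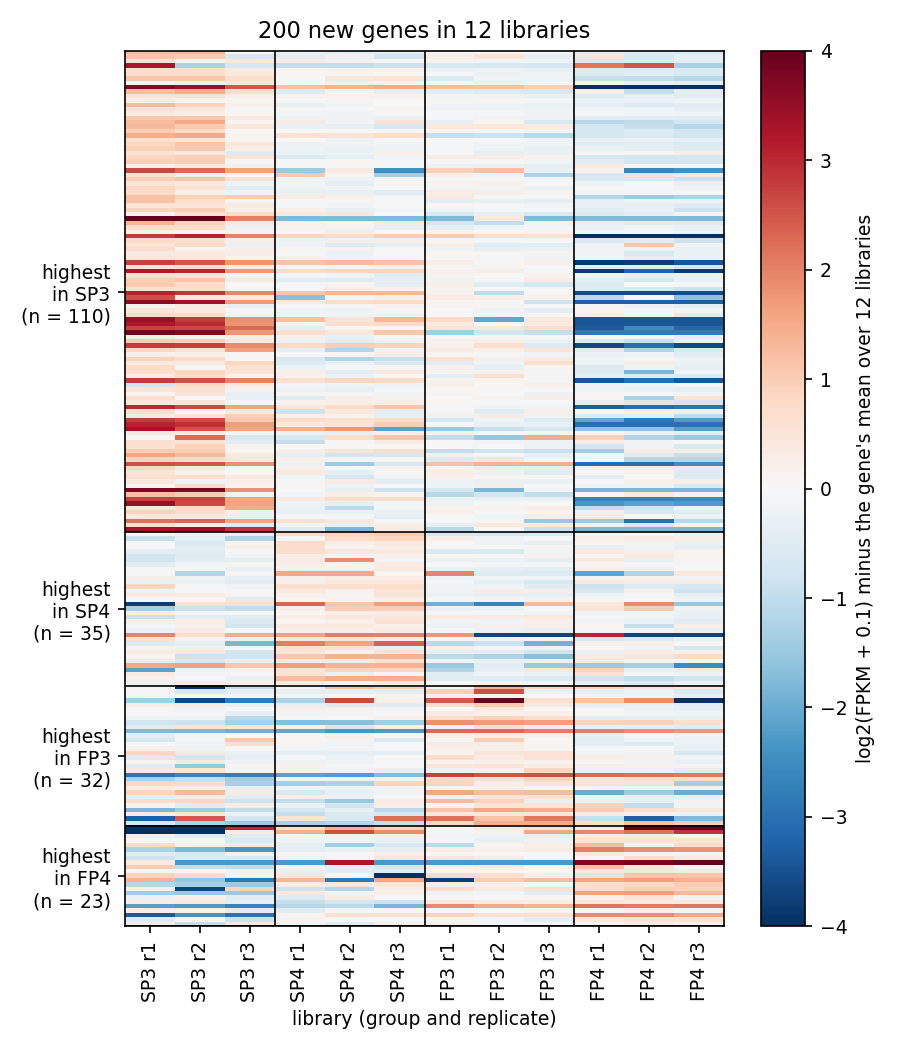
The 200 new genes (rows, grouped by the group of highest mean and ordered by rank within it) in the 12 libraries (columns, group and replicate), coloured by log2(FPKM + 0.1) minus the gene's mean over the libraries. Among the 110 genes highest in SP3, the 19 below 0.1 FPKM in every FP4 library are blue in all of those libraries. Rice_newGene_15408, which belongs to the 19, is equally blue in the SP4 libraries, where it was also at 0 FPKM. Among the 110, SP3 replicate 3 is paler than the other SP3 replicates.

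The steadiest members kept 1 level through both stages and both types. Rice_newGene_4763, with the lowest coefficient of variation (9.83%), lay between 9.28 and 12.5 FPKM in all 12 libraries. Rice_newGene_20378 (10.4%) lay between 47.5 and 67.7 FPKM, and Rice_newGene_32848 (10.5%) between 27.4 and 39.7 FPKM. None of the 3 was called in any comparison, and their fitted log2 fold changes in the pairwise comparisons lay between -0.32 and 0.16. In all, 32 members (16%) had a coefficient of variation under 20%, against 25.3% of the annotated loci of the same level.

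A set of 19 members was near or at 0 in fertile panicles at the uninucleate stage and high in sterile panicles at meiosis. In 16 of them every FP3, SP3 and SP4 library held at least 0.1 FPKM, and the exceptions were Rice_newGene_15408, Rice_newGene_13398 and Rice_newGene_32131. These 19 (9.5%) stayed below 0.1 FPKM in every FP4 library, which held at most 24 counts of such a member over the 3 libraries and 0 counts of 9 of them. Of the annotated loci of the same level, 14 of 14698 (0.0953%) did so, and of the other new genes that met the minimum, 15 (7.39%) did. No other group had so many silent members: 3 (1.5%) were below 0.1 FPKM in every SP3 library, 1 (0.5%) in every FP3 library and 1 (0.5%) in every SP4 library. For the annotated loci of the same level these shares were 1.21% in SP3, 0.0748% in FP3 and 0.245% in SP4. The set was chosen after its values were seen and no test was run on it.

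All 19 had their maximum in SP3, and for all 19 the lowest SP3 library lay above every library of the other groups. The SP3 maximum was not particular to the members. It was found in 14 of the 15 other new genes and in 10 of the 14 annotated loci that were below 0.1 FPKM in every FP4 library. In 16 of the 19 the group means followed the order SP3, SP4, FP3, FP4. That order was found in 44 of the 200 members (22%), which include the 16, and in 14.1% of the annotated loci of the same level. The set was chosen by its low FP4 values, which fixed the place of FP4. Most of the set reached the level of the lowest member (3.24 FPKM) in SP3 alone. The membership rule thus largely fixed the SP3 maximum as well, and these shares are not a like comparison. Rice_newGene_18837, the highest of the set at rank 12, measured 101, 86.5 and 44.4 FPKM in SP3, 17.9, 20.8 and 22.0 in SP4, 19.1, 17.9 and 15.3 in FP3, and 0.091, 0.082 and 0 in FP4. SP4 and FP3 overlapped, while SP3 lay above and FP4 far below both.

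Rice_newGene_26241 showed the steps more clearly, with 12.7, 10.7 and 6.46 FPKM in SP3, 4.15, 4.50 and 4.09 in SP4, 2.21, 1.88 and 2.09 in FP3 and 0.031, 0.042 and 0.078 in FP4. No groups of this member overlapped. Rice_newGene_38300 measured 13.0, 15.8 and 7.35 FPKM in SP3, 3.30, 3.02 and 3.61 in SP4, 3.58, 2.80 and 2.77 in FP3 and 0 in all 3 FP4 libraries, so SP4 and FP3 overlapped. Rice_newGene_18397 departed from the order: its FP3 values of 1.73, 2.01 and 2.10 FPKM lay above the SP4 values of 0.57, 0.20 and 0.40, and SP3 held 4.56, 4.46 and 2.75.

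Across the set the group means ran from 3.25 to 77.3 FPKM in SP3 (median 7.11), from 0 to 20.2 in SP4 (median 1.48) and from 0.119 to 17.4 in FP3 (median 1.02). The member at 0 in SP4 was Rice_newGene_15408. In 11 of the 19 every SP4 library held at least 1 FPKM. Every SP4 library lay above every FP4 library in 17 of them and above every FP3 library in 10. SP3 replicate 3 was the lowest SP3 library in 19 of 19, and without it all 19 still had their highest mean in SP3.

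**Figure D3:**
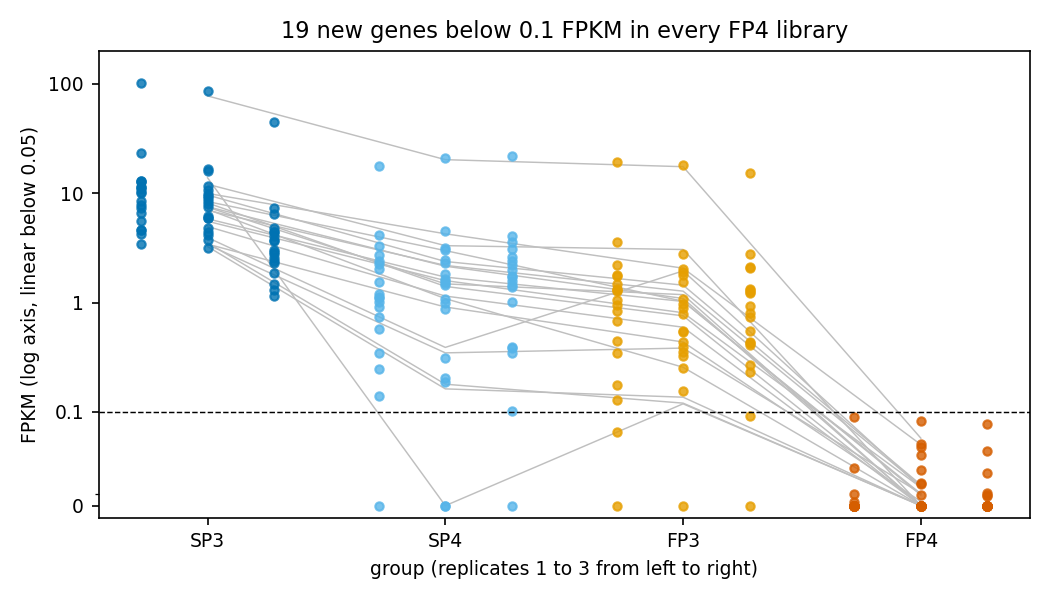
FPKM of the 19 new genes that were below 0.1 FPKM (dashed line) in every FP4 library, for each library of the 4 groups (points, log axis that is linear below 0.05), with the group means of each gene joined by a grey line. All 19 have their highest mean in SP3, and 9 have 0 counts in all 3 FP4 libraries.

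The meiocyte marker sum was looked up beside this set. The summed level of MEL1, PAIR1, PAIR2 (meiotic genes of the germ line) and ZEP1 (a synaptonemal complex protein) was 50.6 to 66.0 FPKM in SP3, 30.6 to 34.8 in SP4, 24.1 to 30.1 in FP3 and 7.65 to 9.37 in FP4, and none of the 4 was at 0 in any library. Most of the sum was MEL1, which averaged 49.5 FPKM in SP3, 23.9 in SP4, 20.5 in FP3 and 5.61 in FP4. PAIR1 and PAIR2 had the same order of groups, while ZEP1 did not, with 2.57 FPKM in SP3, 2.96 in SP4, 2.60 in FP3 and 1.28 in FP4. The group means thus stood in 1 order in the marker sum and in 16 of the 19 members. The place of FP4 in the members was fixed by the choice of the set, and that of SP3 largely by the membership rule. That left mainly the order of SP4 and FP3 free. In 10 of the 19 every SP4 library lay above every FP3 library. In FP4, 9 of the members had 0 counts in all 3 libraries and 3 had counts in every library. The part that the number of meiocytes had in these levels was not tested.

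The first planned comparison was of fertile with sterile panicles at meiosis. A gene was called at an absolute log2 fold change above 1 with a Benjamini-Hochberg adjusted p below 0.05 from edgeR's quasi-likelihood test over all genes, and adjusted p-values below are of this kind. Of the 199 members tested, 15 were higher and 31 lower in FP3 than in SP3. Over all 24405 genes tested, 21.5% were called, 14.8% higher and 6.74% lower in FP3, against 23.1% of the members, 7.54% higher and 15.6% lower. Of the 1190 new genes tested that are not members, 40.8% were called, 105 higher and 380 lower in FP3. The members were drawn by their levels in these libraries, so these shares describe them without testing them, and the p of a single member is likewise given as a description. The median log2 fold change was -0.29 over the members and 0.04 over all genes. The replicates of FP3 and SP3 did not overlap in FPKM for 105 members, and for 50.7% of all genes tested.

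Among the members higher in FP3, Rice_newGene_76 had the largest fold change. It measured 4.90, 4.23 and 4.37 FPKM in FP3 against 0, 0.025 and 0.014 in SP3, which is 8.10 on the log2 scale (SE 0.57, adjusted p = 0.000143). The SP3 libraries held 0, 5 and 3 counts of it, so its fold change rests on few counts on the sterile side. Rice_newGene_21580 measured 1.75, 1.40 and 1.42 FPKM in FP3 and 0, 0.091 and 0.026 in SP3 (4.97 on the log2 scale, SE 0.88, adjusted p = 0.00495). Rice_newGene_36769 was also called (5.94, SE 1.26, adjusted p = 0.00992), with 10.9, 41.5 and 3.03 FPKM in FP3 and 0.68, 0.063 and 0.19 in SP3, and its FP3 replicates alone spanned more than 10-fold.

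Of the 31 members lower in FP3, 18 belonged to the set that was near 0 in FP4. Rice_newGene_15408 had the lowest fold change, with 23.5, 16.6 and 1.29 FPKM in SP3 and 0, 0.36 and 0 in FP3 (log2 fold change -6.56, SE 1.52, adjusted p = 0.0136). All of its FP3 signal came from 1 library, and SP3 replicate 3 was far below the other SP3 libraries. Rice_newGene_13398 measured 4.64, 4.76 and 1.16 FPKM in SP3 and 0.13, 0 and 0.23 in FP3 (-4.64, SE 0.98, adjusted p = 0.00967). Rice_newGene_15087 measured 9.95, 9.07 and 2.32 FPKM in SP3 and 0.18, 0.32 and 0.27 in FP3 (-4.61, SE 0.55, adjusted p = 0.00102). In all 3 the groups were separated. Without SP3 replicate 3, 19 members were higher and 40 lower, 19 of the latter from the set near 0 in FP4. The share over all genes was not taken in that fit, so the change is not one of the members alone. The log2 fold changes of the members named were then 8.30 for Rice_newGene_76, 4.86 for Rice_newGene_21580, 5.72 for Rice_newGene_36769, -7.16 for Rice_newGene_15408, -5.08 for Rice_newGene_13398 and -5.05 for Rice_newGene_15087, and all stayed called (adjusted p from 0.000193 to 0.0322).

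The second comparison was of the types at the uninucleate stage. Of the 197 members tested, 15 were higher and 30 lower in FP4 than in SP4. Over all 24645 genes tested, 22.3% were called, 15.4% higher and 6.87% lower in FP4, and of the members 22.8%, 7.61% higher and 15.2% lower. Of the 814 new genes tested that are not members, 22.1% were called, 98 higher and 82 lower in FP4. Median log2 fold changes were -0.22 over the members and 0.00 over all genes. The replicates did not overlap for 103 members, and for 58.4% of all genes. The sum of the 6 tapetum markers was 789 to 843 FPKM in FP4 and 39.8 to 45.4 in SP4. Most of it was OsC6, a lipid transfer protein (623 FPKM in FP4 and 2.27 in SP4). CYP703A3, CYP704B2 and EAT1 were also higher in FP4, while the transcription factor TDR was lower (9.14 against 23.6 FPKM) and UDT1 measured 1.25 against 1.34 FPKM. The part of the tapetum in these counts was not tested.

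Rice_newGene_76 was again the highest of the members raised in FP4, with 3.53, 3.42 and 3.20 FPKM against 0.072, 0.062 and 0.13 in SP4 (log2 fold change 5.24, SE 0.25, adjusted p = 1.24e-05). Rice_newGene_19496 measured 7.58, 6.88 and 6.44 FPKM in FP4 and 0.35, 0.28 and 0.30 in SP4 (4.46, SE 0.13, adjusted p = 2.13e-06). Rice_newGene_18090 measured 3.58, 3.43 and 3.50 FPKM in FP4 and 0.28, 0.31 and 0.13 in SP4 (3.58, SE 0.29, adjusted p = 0.000113). All 3 were separated from the sterile panicles at both stages, and Rice_newGene_19496 held 9.21, 9.05 and 7.77 FPKM in FP3 and 0.47, 0.44 and 0.40 in SP3.

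Of the 30 members lower in FP4, 16 belonged to the set near 0 there and 14 did not. For a member with 0 counts in all FP4 libraries a fold change has no upper limit, and it was computed against a floor of 3 counts over the 3 libraries. Rice_newGene_15459 held 219, 161 and 334 counts in SP4, at least 295-fold more than FP4. Rice_newGene_38300 held 143, 131 and 177 counts in SP4, at least 186-fold more. Rice_newGene_18793 measured 1.09, 1.64 and 1.71 FPKM in SP4 and 0 in FP4. The adjusted p-values of these 3 were 0.000193, 7.56e-05 and 0.000182. The counts are estimates, so these bounds are approximate.

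The direction of the difference between the types was shared by the stages wherever a member was called at both. In all, 9 members were higher in fertile panicles at both stages, 21 were lower at both, and 0 were called in opposite directions, of 196 tested at both. Over the 23233 genes tested at both stages, 9.18% were higher at both, 2.6% lower at both and 0.31% opposite. The 21 lower members included 15 of the set near 0 in FP4 and, beside them, Rice_newGene_563, Rice_newGene_18115, Rice_newGene_18813, Rice_newGene_20860, Rice_newGene_23714 and Rice_newGene_30984. The 9 higher members were Rice_newGene_76, Rice_newGene_4941, Rice_newGene_13270, Rice_newGene_18090, Rice_newGene_19496, Rice_newGene_21210, Rice_newGene_21580, Rice_newGene_24400 and Rice_newGene_33462. Rice_newGene_24400 had close replicates in each group, with 9.49, 8.83 and 8.40 FPKM in FP3, 4.92, 5.07 and 4.20 in FP4, 1.47, 1.44 and 1.01 in SP3 and 0.74, 0.76 and 0.93 in SP4. Its fertile libraries lay above all sterile ones at either stage. It was chosen for naming after its values were seen.

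**Figure D4:**
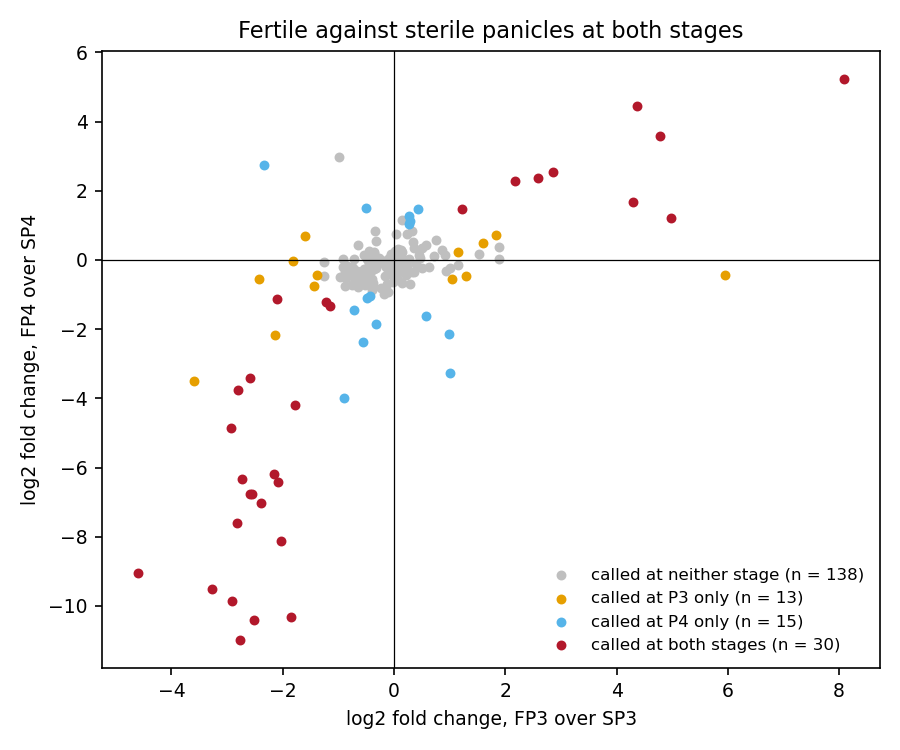
Log2 fold change of fertile over sterile panicles at P3 (x axis) and at P4 (y axis) for the 196 new genes tested at both stages, coloured by whether the gene was called. The 30 genes called at both stages lie in the lower left (21) or upper right (9), and 138 called at neither crowd around 0.

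Between the stages of fertile panicles, 10 of the 196 members tested were higher and 26 lower in FP4 than in FP3. Over all 24926 genes tested, 19.0% were called, 12.9% higher and 6.13% lower, against 18.4% of the members, 5.10% higher and 13.3% lower. Of the 861 new genes tested that are not members, 18.7% were called, 66 higher and 95 lower in FP4. The replicates did not overlap for 123 members, and for 57.5% of all genes. The comparison uses libraries already used above, FP4 and FP3 each serving in another comparison, so its values are not independent of those.

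Rice_newGene_4552 had 0 counts in all FP3 libraries and 1237, 1479 and 2369 in FP4, at least 1713-fold more over the groups (adjusted p = 0.000125). It also held 825 counts in SP4 replicate 2 and 117 in SP3 replicate 1 and 0 in the other 4 sterile libraries, so it switched between presence and absence inside groups as well. Rice_newGene_33462 rose from 1.27, 1.33 and 1.03 FPKM in FP3 to 4.79, 4.90 and 3.80 in FP4 (log2 fold change 2.16, SE 0.11, adjusted p = 1.59e-05). Rice_newGene_30633 rose from 0.67, 0.57 and 0.39 FPKM to 1.88, 2.06 and 2.60 (1.98, SE 0.28, adjusted p = 0.00135). Without the members whose replicates of 1 group spread 10-fold or more, 6 members were higher in FP4, since Rice_newGene_4552, Rice_newGene_5832, Rice_newGene_22322 and Rice_newGene_26980 drop out.

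The 26 members lower in FP4 included 16 of the set near 0 there. The 3 with the lowest fitted values were Rice_newGene_38300, Rice_newGene_18793 and Rice_newGene_15459, with 208, 155 and 147, 180, 128 and 158, and 270, 17 and 154 counts in FP3. Against the floor of 3 counts over the FP4 libraries, FP3 was at least 168-fold, 154-fold and 145-fold higher in that order, and the adjusted p-values were 9.66e-05, 0.000138 and 0.0146. FP3 replicate 2 was well below its group for the last of them.

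Between the stages of sterile panicles, 16 of the 199 members tested were higher and 34 lower in SP4 than in SP3. Over all 23601 genes tested, 19.7% were called, 12.8% higher and 6.85% lower, against 25.1% of the members, 8.04% higher and 17.1% lower. Of the 1089 new genes tested that are not members, 39.2% were called, 49 higher and 378 lower in SP4. The replicates did not overlap for 111 members, and for 48.7% of all genes. All 19 members near 0 in FP4 were among the 34. Without SP3 replicate 3, 21 were higher and 40 lower, and the share over all genes was not taken in that fit.

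Rice_newGene_21580 rose from 0, 0.091 and 0.026 FPKM in SP3 to 0.95, 1.5 and 1.42 in SP4 (log2 fold change 4.88, SE 0.90, adjusted p = 0.0065), and Rice_newGene_9892 from 0.69, 0.77 and 0.22 to 4.58, 3.35 and 5.71 (3.13, SE 0.38, adjusted p = 0.00129). Rice_newGene_22937 rose from 1.33, 1.89 and 1.72 FPKM to 3.99, 7.10 and 6.92 (1.94, SE 0.28, adjusted p = 0.00266). The groups were separated in all 3. Rice_newGene_15408 fell from 1734, 1271 and 87 counts in SP3 to 0 in all SP4 libraries, at least 901-fold lower over the groups (adjusted p = 0.00887).

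Rice_newGene_32131 fell from 3.45, 3.76 and 2.53 FPKM to 0.14, 0 and 0.35 (log2 fold change -4.05, SE 0.84, adjusted p = 0.00972). Rice_newGene_13398 fell from 4.64, 4.76 and 1.16 FPKM to 0.25, 0.19 and 0.10 (-4.03, SE 0.57, adjusted p = 0.00239). Both belong to the set near 0 in FP4, and neither was tested there for lack of counts. Without SP3 replicate 3 the log2 fold changes of the members named here with one were 4.77 for Rice_newGene_21580, 2.76 for Rice_newGene_9892, 2.05 for Rice_newGene_22937, -4.15 for Rice_newGene_32131 and -4.46 for Rice_newGene_13398, and all, with Rice_newGene_15408, stayed called. In all, 21 members were lower at P4 in both types, 16 of them of that set, and 5 were higher at P4 in both types and 0 changed in opposite directions (of 195 tested in both, against 2.55%, 6.12% and 0.335% of all 22691 genes tested in both). The 5 were Rice_newGene_9892, Rice_newGene_13270, Rice_newGene_21580, Rice_newGene_30633 and Rice_newGene_33462.

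Whether the difference between the types changed with stage was tested as an interaction in all 12 libraries. The difference of fertile from sterile was relatively higher at P4 in 6 members and relatively lower in 26, of 200 tested. Over all 26392 genes tested, 9.87% were called, 3.26% relatively higher and 6.62% relatively lower, against 16% of the members. Of the 1320 new genes tested that are not members, 6.21% were called, 45 relatively higher and 37 relatively lower. Of the 26, 15 belonged to the set near 0 in FP4. Rice_newGene_38300 and Rice_newGene_15459 had the lowest values, with adjusted p of 2.12e-05 and 0.0247, and because both had 0 counts in FP4 the size of their interaction is not bounded. The call of Rice_newGene_15459 was lost without FP3 replicate 3, FP4 replicate 1, FP4 replicate 3 or SP4 replicate 3 (adjusted p from 0.0514 to 0.0540). With limma on log2(FPKM + 1) neither was called (log2 differences of -0.47 and 0.38, adjusted p of 0.309 and 0.656), and with limma on log2(FPKM + 0.1) Rice_newGene_15459 was not called (-1.47, adjusted p = 0.305). Rice_newGene_21580 also passed (log2 difference -3.71, SE 0.81, adjusted p = 0.00918): it was higher in fertile panicles by 4.97 at P3 and by 1.20 at P4 on the log2 scale.

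Of the 6 in the other direction, Rice_newGene_29882 measured 79.1, 90.2 and 52.4 FPKM in SP3 and 23.8, 22.4 and 20.9 in FP3, then 22.6, 33.7 and 25.9 in SP4 and 39.5, 16.6 and 25.5 in FP4 (log2 difference 2.35, SE 0.57, adjusted p = 0.0156). It was separated between the types at P3 and overlapped at P4. Rice_newGene_5832 had the largest value of the 6 (5.14, SE 1.56, adjusted p = 0.0407), which rests on the 3 libraries named above: leaving out SP3 replicate 1 brought it to 2.46 (adjusted p = 0.122). Its call was also lost without FP4 replicate 1 or 2 and without any 1 of the FP3 or SP4 libraries (adjusted p from 0.0774 to 0.0928). Without SP3 replicate 1, 2 members in all were relatively higher, and without FP3 replicate 2 there were 3. Without SP3 replicate 3, 8 members were relatively higher and 33 relatively lower, 16 of the latter from the set near 0 in FP4. The 4 named members with the largest and lowest values stayed called. The share over all genes was not taken in these fits with a library left out.

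Across the 4 pairwise comparisons, 77 members were called in at least 1 and 123 in none, against 39.6% of the 26094 genes tested that were called in at least 1. A total of 20 members were called in all 4, against 2.91% of all genes. Of these, 17 were lower in fertile panicles at both stages and lower at P4 in both types, against 0.778% of all genes. The 17 include 15 of the set near 0 in FP4, which was chosen after its values were seen. The 4 comparisons share libraries, so their calls are not independent. By the unadjusted p below 0.05 and with no minimum fold change, 103 members passed for FP3 versus SP3, 106 for FP4 versus SP4, 122 for FP4 versus FP3 and 108 for SP4 versus SP3, against 50.9%, 58.2%, 57.2% and 49.2% of all genes tested.

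A feature of the members that the fold changes do not show is the spread inside groups. In 15 members (7.5%), replicates of 1 group differed 10-fold or more in CPM, with values under a floor of 3 counts raised to it, against 1.82% of the annotated loci of the same level. This happened in SP3 for 10 of them, in FP3 and in SP4 for 5 each and in FP4 for 4. Rice_newGene_26980, at rank 9, held 0, 0 and 21.1 FPKM in SP3, 16.6, 19.1 and 49.9 in FP3, 65.0, 76.0 and 124 in FP4 and 46.0, 101 and 62.3 in SP4. SP3 replicates 1 and 2 were at 0, while each of the other 10 libraries held over 16 FPKM. Rice_newGene_11218, at rank 18, held 30.5, 0.65 and 15.8 FPKM in SP3 and between 34.7 and 81.2 in the other groups. Rice_newGene_36769 spread 10-fold in CPM in 3 groups and was at 0 in FP4 replicate 3. Both Rice_newGene_26980 and Rice_newGene_11218 were described after their values were seen.

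**Figure D5:**
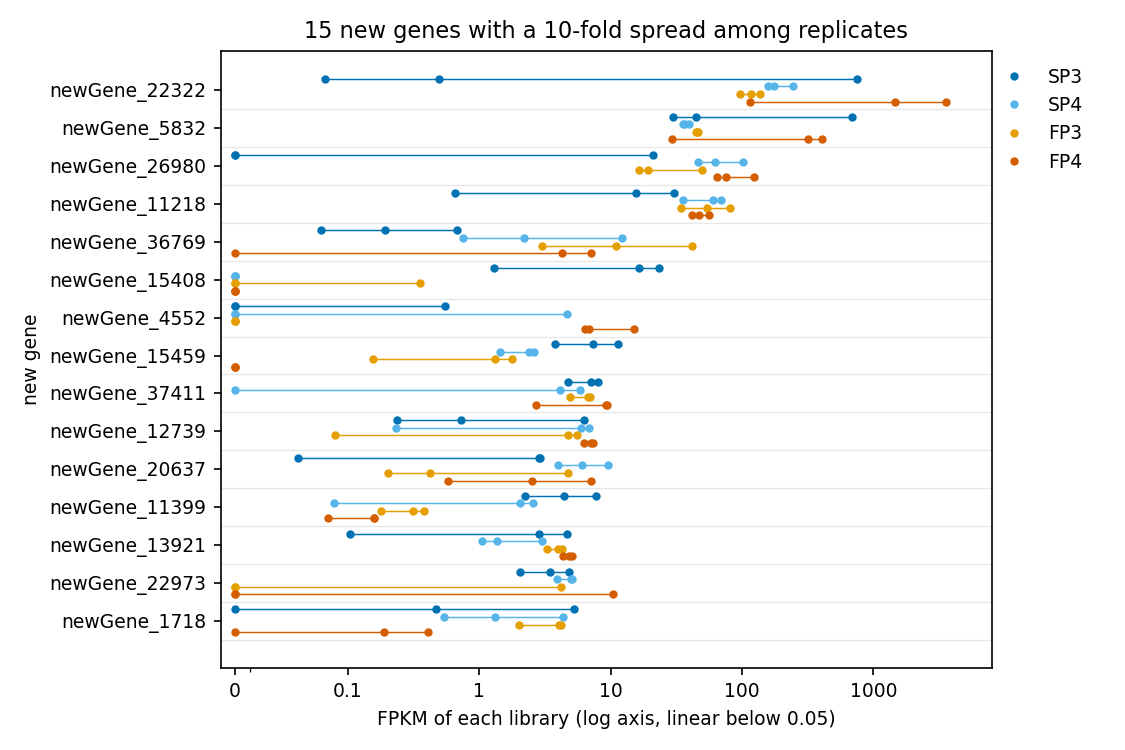
FPKM of each library (points, log axis that is linear below 0.05) for the 15 new genes with a 10-fold or wider spread in CPM among the replicates of a group, with a line joining the 3 replicates of each group. Rice_newGene_22322 spans 0.067 to 744 FPKM within SP3, and Rice_newGene_26980 is at 0 in 2 of the 3 SP3 libraries.

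The deposited counts and FPKM of a gene together imply a relative transcript length, since FPKM divides by length and the count does not. This length index was scaled so that its median over 22079 annotated loci was 1. Over the members the median was 0.930, with a middle range of 0.536 to 1.42, against 0.695 to 1.44 for the annotated loci, and the median over 919 other new genes was 0.963. The lower end of the middle range was thus shorter in the members, and the upper end was about equal. Rice_newGene_19654, at rank 5, had the smallest index (0.146) and Rice_newGene_31634, at rank 60, the largest (7.81). Rice_newGene_30821 (0.203) and Rice_newGene_17150 (0.353) were short as well, so their high FPKM came from fewer counts than that of longer transcripts. The 19 members near 0 in FP4 ranged from 0.307 to 3.02 with a median of 0.689.

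A gene counted over 1 fixed length has the same index in every library. The index varied more than 1.5-fold among libraries in 23 members (11.5%), against 5.82% of the annotated loci of the same level, and more than 2-fold in 6 members (3%), against 1.26%. Rice_newGene_14083 varied most (4.34-fold), and Rice_newGene_29882 varied 2.22-fold. For such members, levels in FPKM and differences in counts can part.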

How the data were processed

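Total RNA of young panicles was freed of DNA and rRNA and made into strand-specific libraries, 12 in all (4 groups, 3 biological replicates). Per the study's methods, the authors aligned reads to MSU7 with HISAT2 and computed expression with StringTie. The authors deposited 2 tables, of estimated counts (whole numbers for each gene) and of FPKM values, which are scaled to transcript length and mapped reads. How the new genes were assembled, and the versions of the tools, are not given in the sources used here. Members and lists were chosen with earlier results of these data known. Groups came from the sample titles, and 0 columns lacked a sample.

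Estimated counts were tested as they stand with edgeR 4.0.16 (R 4.3.3; filterByExpr, TMM, glmQLFit, glmQLFTest) on the whole table, each pair within its own libraries and the interaction over all 12. Alternatives were DESeq2 1.42.0, limma 3.58.1 on log2 FPKM with 1 or 0.1 added, library totals, other filters, a replicate block, 1 model, unadjusted p, other member rules and leaving out each library. Other tables used Python 3.11.15, pandas 2.3.3 and numpy 2.4.6, and figures matplotlib 3.10.9. The length index is the count divided by the FPKM in libraries with at least 50 counts, divided by the library's median over annotated loci, and the median over libraries.

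Named members were, by rule, the 6 of highest level, up to 3 per direction in each pairwise comparison (called, mean of at least 1 CPM, replicates not overlapping), 2 per direction in the interaction, the 3 steadiest and the 3 ranks on either side of the edge. Depth was 30577833 to 51193158 counts. A value of 0 allows up to 3 counts, and bounds cover counting error only. Replicates were separate libraries: the lowest chi-square per degree of freedom between replicates was 62.1. An exact permutation test of 3 against 3 cannot go below p = 0.1. Chromatin data were not used here, since no position of a new gene was at hand.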

Additional observations from a re-analysis of the deposited data

Results flagged for a closer look

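The effect of type differed between the stages, by the interaction test, in 6 members that were relatively higher and 26 that were relatively lower in fertile panicles at P4. These were 3% and 13% of the members, against 3.26% and 6.62% of all 26392 genes tested. Of the named members, Rice_newGene_38300 and Rice_newGene_15459 had fitted log2 differences of -8.49 and -8.22, which depend on the prior count because FP4 held 0 counts. Rice_newGene_5832 had 5.14, a call that was lost in 12 alternatives, and Rice_newGene_29882 had 2.35.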

How the results depend on the processing

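Of 422 alternatives for the 28 named differences, 402 stayed called in the same direction, 19 were no longer called and 1 reversed. The 422 include the unadjusted p for each of the 28, which reused the main fit and could not lose a call. Fits in which a filter removed the member, such as at least 10 counts in every library, are not among the 422. The reversal was the interaction of Rice_newGene_15459 with limma on log2(FPKM + 1), 0.38 (adjusted p = 0.656). Rice_newGene_5832 lost its interaction call in 12 alternatives, among them the replicate block (log2 difference 3.99, adjusted p = 0.129), which changed no other named call. Same-numbered replicates did not deviate together (r from -0.018 to 0.024 over 26392 genes), so the numbers were not taken as pairs.

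Ranking members by mean FPKM over 12 libraries kept 176 members, by CPM 167 and with no replicate minimum 193. Under the 12-library mean the called members were 9 higher in FP3 than SP3, 9 higher and 19 lower in FP4 than SP4, 6 higher and 17 lower in FP4 than FP3, 10 higher in SP4 than SP3, and 17 relatively lower in the interaction. Taking the top 100 gave 5 and 13 (FP3 versus SP3, higher and lower), 6 and 13 (FP4 versus SP4), 5 and 10 (FP4 versus FP3), 5 and 14 (SP4 versus SP3) and 8 relatively lower in the interaction. For the changed fits that follow, the share called over all genes was not taken. At least 10 counts in every library left 11 lower in FP4 than SP4, 7 lower in FP4 than FP3 and 8 relatively lower, because members at 0 go untested. With limma on log2(FPKM + 1), 5 were higher and 13 lower in FP4 than FP3, 9 higher in SP4 than SP3 and 7 relatively lower. DESeq2 gave 10 relatively higher. Without members of 10-fold spread, chosen after seeing the data, 6 were higher in FP4 than FP3. Leaving out each library gave 2 to 8 members relatively higher and 20 to 33 relatively lower in the interaction. Library totals in place of TMM shifted the median log2 of all genes by -0.11 in FP4 versus SP4, by -0.10 in FP4 versus FP3 and by -0.13 in the interaction. Limits chosen after seeing the data gave 22 members for a 5-fold replicate spread, and 16 and 22 members below 0.05 and 0.2 FPKM in every FP4 library.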
